A study of Mus musculus with 14 samples.

Results

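The genes of the endothelin and nitric oxide systems that set vessel tone were followed in mouse kidneys after renal ischemia/reperfusion injury (IRI). There were 9 of them, taken by symbol from the 24411 genes in the count tables: Edn1, Ece1, Ednra and Ednrb of the endothelin system, the nitric oxide synthases Nos1, Nos2 and Nos3, and the natriuretic peptide receptors Npr1 and Npr3. All 9 passed the filter on low counts, which left 14300 genes. RNA of whole kidney tissue, that is of all its cells at once, was sequenced and gave 4 libraries at day 0, 5 at day 1 and 5 at day 3. Every library was labelled as kidney of a male C57/B6 mouse of 8 weeks, with RNA extracted by TRIzol and prepared with an Illumina TruSeq kit. The labels give only the day as the condition, and neither they nor the paper's text say how the day 0 mice were handled or how many animals stand behind a library. The p-values therefore measure the spread between these libraries. Each library held 16485636 to 17935503 reads on genes at day 0, 13399023 to 20476979 at day 1 and 12485579 to 19168972 at day 3. The number in a library's name has 3 digits in replicates 1 and 2 of day 1 and replicates 1, 2 and 3 of day 3, and 1 digit in the remaining libraries, those of day 0 included. What this number format marks is not given in the sources used here, so values are also given within each format.

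Endothelin 1, the product of Edn1, is a peptide that constricts vessels. Its precursor is cut to the active form by endothelin converting enzyme 1 (Ece1), and the peptide acts on the A receptor (Ednra) of vascular smooth muscle and on the B receptor (Ednrb) of endothelium and collecting duct, which also clears it from the blood. Nitric oxide, made from arginine by the nitric oxide synthases, relaxes smooth muscle by raising cyclic GMP, and the receptor Npr1 raises cyclic GMP when it binds natriuretic peptides, whereas Npr3 takes those peptides up and removes them. In the kidney both systems set blood flow and the excretion of salt.

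Edn1 (ENSMUSG00000021367.8) lies at chr13:42301476-42307990 of GRCm38 on the plus strand, with 1 transcript of 5 exons. The sequence around its start is shown because Edn1 had the largest change of the 9 genes. It is given from 5′ to 3′ on the plus strand, from RefSeq on GRCm38.p6. The 250 bases before the start, chr13:42301226-42301475, read as follows.
Edn1 before the start: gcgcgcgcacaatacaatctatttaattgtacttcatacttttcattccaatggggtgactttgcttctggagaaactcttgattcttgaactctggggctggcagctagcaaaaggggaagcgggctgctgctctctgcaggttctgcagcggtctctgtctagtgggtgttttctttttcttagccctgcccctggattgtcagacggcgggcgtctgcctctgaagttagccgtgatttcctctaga
Positions 14 to 43 after the start, chr13:42301489-42301518, are in the first exon, with matches to 2 of the motifs searched in capitals.
Edn1 after the start: tctggctgCACGTtgcctgtgggTGACTAA

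Motifs were searched by their letters on both strands of the RefSeq windows, which run from 250 bases before to 50 after a gene's start. In the Edn1 window the core of the hypoxia response element (ACGTG) was found on the minus strand at position 22, and a variant of the AP-1 site (TGACTAA) on the plus strand at position 37. A GATA site (AGATAA) was found on the minus strand at position 9, and the AP-1 site itself (TGANTCA) was not found. Of all 32851 windows of 300 bases, 19.6% hold the hypoxia response core, 2.35% the AP-1 variant, 11.2% the GATA site and 7.81% the AP-1 site. Windows were found for 7 of the 9 genes, Nos2 and Nos3 having none. Among the other 6, only Ece1 had a match, with the hypoxia response core on both strands at overlapping positions -90 and -89 in 1 of its 4 windows. These matches describe the letters only.

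At day 1, Edn1 and Nos3 were higher than at day 0, and Nos1, Npr1 and Npr3 were lower. At day 3, Edn1 and Ednra were higher and Npr3 was lower. A change is called here when the adjusted p-value is under 0.05 in edgeR's quasi-likelihood test, with Benjamini-Hochberg adjustment over all 14300 genes. By this rule 5 of the 9 genes changed at day 1, 2 higher and 3 lower, where 42.1% of all genes tested were called, 23.3% higher and 18.7% lower. At day 3 there were 3 of 9, 2 higher and 1 lower, where 33.3% of all genes were called, 19.5% higher and 13.8% lower. Between day 3 and day 1 there was 1 of 9, Nos1, where 15.9% of all genes were called. The median log2 fold change of the 9 genes was 0.15 at day 1 and 0.20 at day 3, beside 0.01 and 0.05 over all genes tested. Both days are compared with the same 4 day 0 libraries. The groups did not overlap for these 5 genes at day 1 and these 3 at day 3, where 42.0% and 33.4% of all genes did not overlap. By number format, 6 genes were called at day 1 and 5 at day 3 in the 1-digit libraries (58.5% and 53.7% of all genes tested), and 4 at each of these days for the 3-digit libraries (41.6% and 32.4%). Levels below are in CPM, the reads of a gene relative to all reads on genes of the library, scaled by the TMM method.

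**Figure D1:**
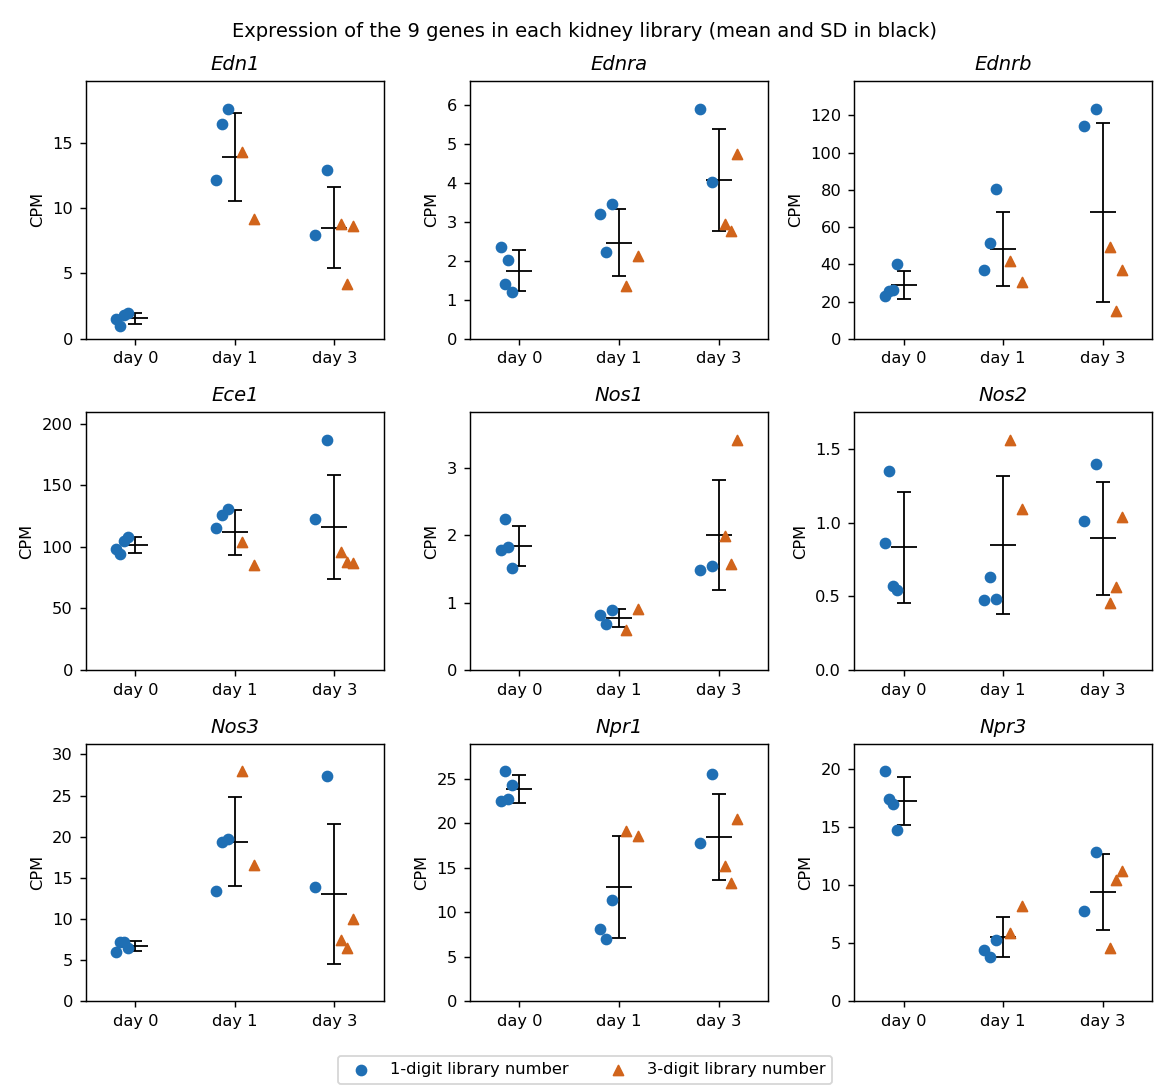
Expression in CPM (vertical axes from 0) of each of the 9 genes by day, with 1 point per library, blue circles for 1-digit and orange triangles for 3-digit library numbers, and the mean and SD in black (n = 4, 5 and 5). Edn1 and Nos3 lie above day 0 in every day 1 library, Nos1, Npr1 and Npr3 lie below it, and at day 3 the 2 libraries with 1-digit numbers hold the highest Ednrb and Nos3 values.

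Edn1 rose most. Its level was 1.5, 0.942, 1.83 and 1.94 CPM in replicates 1 to 4 of day 0, from 16 to 32 reads per library. The values were 14.3, 9.13, 12.1, 16.4 and 17.6 CPM at day 1, and 8.75, 4.22, 8.66, 7.94 and 12.9 CPM at day 3. Every library after IRI was above every day 0 library, while the ranges of day 1 and day 3 overlapped. The mean rose from 1.55 ± 0.448 CPM at day 0 (SD, n = 4) to 13.9 ± 3.40 CPM at day 1 (SD, n = 5), with 8.50 ± 3.09 CPM at day 3 (SD, n = 5). This is a log2 fold change of 3.16 at day 1 (SE 0.34, 8.94-fold, adjusted p = 2.48e-05, edgeR) and 2.45 at day 3 (SE 0.33, 5.46-fold, adjusted p = 0.000179). Libraries with 1-digit numbers gave 3.31 and 2.75 at the 2 days and those with 3-digit numbers 2.91 and 2.22, all 4 called. Day 3 against day 1 gave -0.71 (adjusted p = 0.0948), a difference that was called with the replicate number as a block (-0.76, adjusted p = 0.0199), by DESeq2 (adjusted p = 0.0484), without day 1 replicate 2 (adjusted p = 0.0461) and without day 3 replicate 5 (adjusted p = 0.0305). In bulk tissue, a change in the number of cells that express a gene and a change in its RNA per cell cannot be told apart.

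Ece1 (ENSMUSG00000057530.14, chr4:137862237-137965229, plus strand), the enzyme that activates the peptide, was the most abundant of the 9 genes and was not called in the pooled comparisons. It was at 98.0, 93.9, 105 and 108 CPM at day 0, at 104, 84.9, 115, 126 and 130.5 CPM at day 1 and at 95.9, 87.6, 87.0, 122 and 187 CPM at day 3. The groups overlapped, and the highest value was that of day 3 replicate 5. Against day 0 the log2 fold change was 0.15 at day 1 (95% interval -0.30 to 0.59, adjusted p = 0.597) and 0.20 at day 3 (95% interval -0.25 to 0.65, adjusted p = 0.489). By format, the day 3 value was 0.61 with 1-digit numbers and -0.17 with 3-digit numbers (adjusted p = 0.00459 and 0.382). With number format as a term Ece1 was called higher at day 1 (0.37, adjusted p = 0.0425) and at day 3 (0.50, adjusted p = 0.0157).

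The A receptor gene Ednra (ENSMUSG00000031616.7, chr8:77663031-77724464, minus strand) was low at every day and higher at day 3. It was at 2.36, 1.41, 2.02 and 1.21 CPM at day 0, at 1.35, 2.13, 3.20, 2.23 and 3.46 CPM at day 1, and at 2.95, 2.76, 4.75, 5.92 and 4.04 CPM at day 3. All day 3 libraries were above all day 0 libraries, and the day 1 libraries overlapped with both. Ednra had a log2 fold change of 1.22 at day 3 (SE 0.34, 2.33-fold, adjusted p = 0.0151) and of 0.49 at day 1 (95% interval -0.24 to 1.22, adjusted p = 0.258). By format the day 1 value was 0.75 with 1-digit and -0.0026 with 3-digit numbers, neither called (adjusted p = 0.0627 and 0.996). It was called in a fit with only the 1-digit libraries of the later days (0.78, adjusted p = 0.0451), and day 3 against day 1 was called with number format as a term (0.87, adjusted p = 0.0388). At day 3 it was called within both formats, at 1.51 with 1-digit and 0.99 with 3-digit numbers (adjusted p = 0.00310 and 0.0300).

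Markers of vascular smooth muscle and pericytes, the cells in which the A receptor is best known, were higher at the same day. Of the 10 markers listed, 6 were higher and none lower at day 3, with a median log2 fold change of 1.17, and 3 were higher and 1 lower at day 1. Their summed level was 178 to 240 CPM at day 0, 211 to 642 CPM at day 1 and 353 to 1143 CPM at day 3. No marker was at 0 in every library of a day. By format, 8 markers were higher with 3-digit numbers at day 1 (median 1.48) and 5 lower at day 3 (median -0.63). The same differences of Ednra were -0.75 and -0.51 (adjusted p = 0.153 and 0.3335, edgeR). For day 3 against day 1, the marker median was 1.85 in the 1-digit and -0.39 in the 3-digit libraries. Ednra was at 0.75 and 1.00 there (adjusted p = 0.140 and 0.109). Their part in the Ednra values was not tested.

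The B receptor gene Ednrb (ENSMUSG00000022122.15, chr14:103814625-103844402, minus strand) spread most widely among libraries at day 3. It was at 23.2, 25.5, 26.4 and 39.9 CPM at day 0, at 41.8, 30.3, 36.8, 51.6 and 80.5 CPM at day 1 and at 49.5, 15.0, 37.1, 114 and 124 CPM at day 3. Replicates 4 and 5 of day 3 were above all other libraries, and replicate 2 of that day was below all of them. The pooled log2 fold change was 0.74 at day 1 (SE 0.48, adjusted p = 0.226) and 1.24 at day 3 (SE 0.49, 95% interval 0.19 to 2.28, adjusted p = 0.0648). The day 1 change was called within the 1-digit libraries (0.97, adjusted p = 0.0266) and with number format as a term (1.23, adjusted p = 0.0139), but not within the 3-digit libraries (0.32, adjusted p = 0.524). The day 3 change was called without replicate 2 of day 3 (1.49, adjusted p = 0.00843), by DESeq2 (adjusted p = 0.0315), with total counts in place of TMM scaling (1.36, adjusted p = 0.0406) and with number format as a term (1.73, adjusted p = 0.00273). It was 0.70 with the replicate number as a block (adjusted p = 0.112) and 0.92 without day 3 replicate 5, called in neither. By format the day 3 value was 2.05 with 1-digit and 0.24 with 3-digit numbers (adjusted p = 0.000636 and 0.631).

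Of the other genes of the endothelin system, Mme, which encodes the peptide-degrading enzyme neprilysin, changed in the pooled comparisons, and others did within 1 number format. The list held 6 genes, of which Edn2, with at most 3 reads in any library, and Kel, with at most 7, did not pass the filter. Mme fell from 284 ± 40.8 CPM at day 0 (SD, n = 4) to 60.6 ± 5.99 CPM at day 1 and 88.8 ± 39.6 CPM at day 3 (SD, n = 5 each). Its log2 fold changes were -2.23 (adjusted p = 4.06e-05) and -1.68 (adjusted p = 0.000396). The remaining 3 genes tested, Edn3, Ece2 and Furin, were not called at either day in the pooled fit. Edn3, which encodes another endothelin peptide, was at 9.59 ± 2.01 CPM at day 0 (SD, n = 4). It was at 2.24 ± 0.780 CPM in the 1-digit libraries of day 1 (SD, n = 3) and at 2.21 ± 1.15 CPM in those of day 3 (SD, n = 2), a log2 fold change of -2.11 at both days (adjusted p = 0.00172 and 0.00568, edgeR). With 3-digit numbers it was at 10.2 ± 2.78 CPM at day 1 (SD, n = 2) and 7.96 ± 5.76 CPM at day 3 (SD, n = 3), not called against day 0 (0.08 and -0.27, adjusted p = 0.900 and 0.655). Ece2 was called higher with 3-digit numbers at day 1 (1.02, adjusted p = 0.00357), and Furin, a protease that cuts precursor proteins, with 1-digit numbers at day 3 (0.39, adjusted p = 0.0333). The median log2 fold change of the 4 genes tested was -0.34 at day 1 and -0.43 at day 3, with -1.05 and -1.14 in the 1-digit and -0.02 and -0.26 in the 3-digit libraries.

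**Figure D2:**
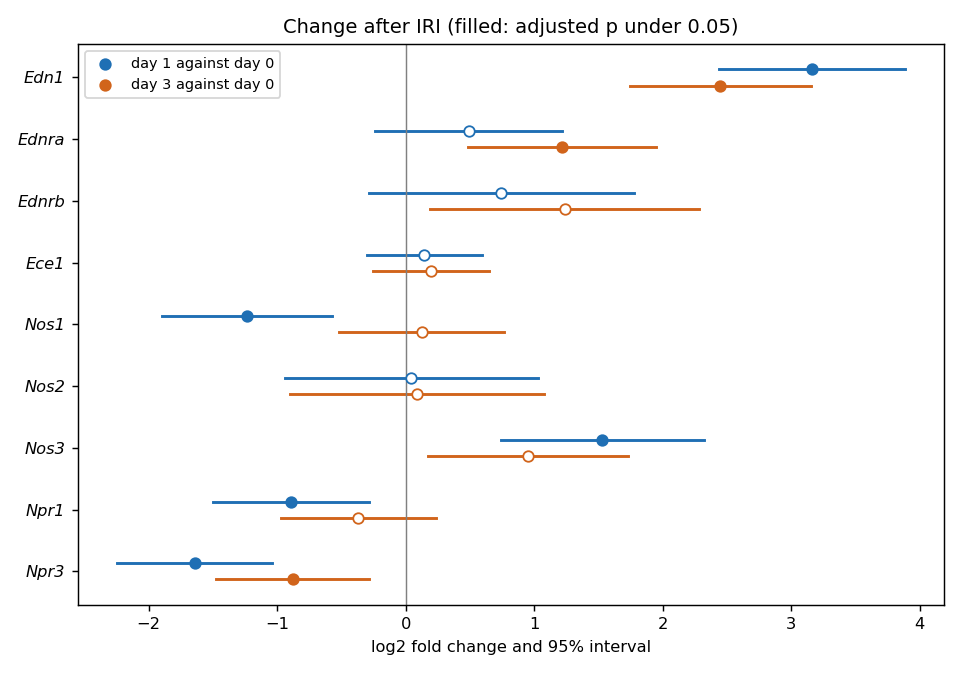
Log2 fold change (horizontal axis) of each of the 9 genes at day 1 (blue) and day 3 (orange) against day 0, with the 95% interval as a line and filled points where the adjusted p is under 0.05. Edn1 stands farthest to the right at both days, Npr3 farthest to the left, and the intervals of Ece1 and Nos2 include 0 at both.

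Among the nitric oxide synthases, the endothelial form Nos3 (ENSMUSG00000028978.12, chr5:24364810-24384474, plus strand) rose at day 1. It was at 6.04, 7.18, 7.20 and 6.47 CPM at day 0, at 28.0, 16.5, 13.4, 19.4 and 19.7 CPM at day 1 and at 7.48, 6.48, 10, 13.9 and 27.4 CPM at day 3. Every day 1 library was above every day 0 library. At day 3, replicates 1 and 2 lay close to the day 0 range, and replicate 5 was close to the highest day 1 library. The mean was 6.72 ± 0.568 CPM at day 0 (SD, n = 4), 19.4 ± 5.44 CPM at day 1 and 13.1 ± 8.52 CPM at day 3 (SD, n = 5 each). Nos3 had a log2 fold change of 1.53 at day 1 (SE 0.37, 2.88-fold, adjusted p = 0.00510), and of 1.38 and 1.72 within the 1-digit and 3-digit libraries, both called.

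At day 3 the pooled log2 fold change of Nos3 was 0.95 (SE 0.36, adjusted p = 0.0572). It was called without replicate 1 (adjusted p = 0.0384) or replicate 2 (adjusted p = 0.0192) of day 3, by DESeq2 (adjusted p = 0.0332), with total counts in place of TMM scaling (1.10, adjusted p = 0.0377) and with number format as a term (adjusted p = 0.0190), and it was 1.62 with 1-digit and 0.25 with 3-digit numbers (adjusted p = 0.000458 and 0.494). It was 0.51 without day 3 replicate 5 (adjusted p = 0.168) and 0.61 with the replicate number as a block (adjusted p = 0.1996). The format term assumes 1 format difference shared by day 1 and day 3, which for Nos3 changed between these days (adjusted p = 0.0151, edgeR). Gm15587, a gene on the opposite strand, shares 17423 bases with Nos3, and Atg9b, also on the opposite strand, shares 294. The counts used here keep the strands apart, and the other strand held at most 7 reads of any of the 9 genes in any library.

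Nos1 (ENSMUSG00000029361.18, chr5:117781032-117958840, plus strand), the neuronal form, known in the kidney from the macula densa, fell at day 1, while its day 3 values overlapped with those of day 0. It was at 1.78, 2.24, 1.83 and 1.51 CPM at day 0, at 0.593, 0.908, 0.818, 0.686 and 0.885 CPM at day 1 and at 1.99, 1.58, 3.42, 1.48 and 1.54 CPM at day 3. All 5 day 1 libraries, with 11 to 20 reads each, were below all libraries of the other days. Nos1 had a log2 fold change of -1.24 at day 1 (SE 0.31, 0.424-fold, adjusted p = 0.00612), and of -1.21 and -1.28 within the 1-digit and 3-digit libraries, both called. At day 3 it was 0.13 against day 0 (95% interval -0.52 to 0.77, adjusted p = 0.772) and 1.36 against day 1 (SE 0.30, 2.57-fold, adjusted p = 0.00963). In a fit with only the 1-digit libraries of the later days, day 3 against day 1 was 0.91 (adjusted p = 0.0593).

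Nos2 (ENSMUSG00000020826.8, chr11:78920787-78960254, plus strand), the form that macrophages and other cells induce in inflammation, was counted with 6 to 29 reads per library. It was at 0.863, 1.35, 0.569 and 0.544 CPM at day 0, at 1.56, 1.09, 0.477, 0.629 and 0.483 CPM at day 1 and at 0.458, 0.563, 1.04, 1.01 and 1.40 CPM at day 3. The 3 groups overlapped throughout. Against day 0 the log2 fold change was 0.05 at day 1 (95% interval -0.94 to 1.03, adjusted p = 0.944) and 0.09 at day 3 (95% interval -0.90 to 1.07, adjusted p = 0.899). By format, the day 1 value was -0.64 with 1-digit and 0.66 with 3-digit numbers (adjusted p = 0.225 and 0.241). Within day 1 the value of the 3-digit minus the 1-digit libraries was 1.30 and was not called (adjusted p = 0.0523).

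Of the markers of white blood cells, those of neutrophils were higher after IRI, and those of macrophages moved in both directions. All 6 neutrophil markers tested were higher at both days, with summed levels of 1.33 to 2.07 CPM at day 0, 49.3 to 206 CPM at day 1 and 19.6 to 419 CPM at day 3. Of the 8 macrophage markers, 3 were higher and 1 lower at day 1, and 5 were higher and 1 lower at day 3. Their summed level was 120 to 188 CPM at day 0, 116 to 321 CPM at day 1 and 176 to 469 CPM at day 3. Against day 0, the macrophage markers were 3 higher and 3 lower at day 1 (median -0.38) and 3 higher and 2 lower at day 3 (median 0.13) in the 1-digit libraries, and 3 higher and 1 lower at day 1 (median 0.42) and 6 higher and 1 lower at day 3 (median 2.56) in the 3-digit libraries. By number format no neutrophil marker was called at either day. With 3-digit numbers, 1 macrophage marker was higher at day 1, and 5 were higher and 1 lower at day 3, where the format value of Nos2 was -0.79 (adjusted p = 0.2496). The part of these markers in the Nos2 values was not tested.

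Of the genes that supply or control the synthases, 18 of 19 were tested. At day 1, 7 were higher and 3 lower, with a median log2 fold change of 0.70, and at day 3, 8 were higher and none lower, with a median of 0.02. Against day 0 within each format, at day 3, 8 were higher and 7 lower in the 1-digit libraries, and 7 higher and 2 lower in the 3-digit libraries, and at day 1, 9 were higher and 3 lower with 1-digit (median 0.96) and 8 higher and 5 lower with 3-digit numbers (median -0.05). Tested between the formats, 3 were higher and 4 lower with 3-digit numbers at day 1, and 3 higher and none lower at day 3. Of all genes tested, 35.0% and 18.5% were called between the formats at these days. Gch1, which makes the cofactor tetrahydrobiopterin, rose from 1.70 ± 0.261 to 11.7 ± 4.6 CPM at day 1 (log2 fold change 2.78, adjusted p = 0.000298) and was 1.47 higher at day 3 on the log2 scale (adjusted p = 0.0148). Its day 3 libraries ran from 1.41 to 8.01 CPM and overlapped with those of day 0 (1.47 to 2.07 CPM). The day 3 mean was 6.76 CPM with 1-digit and 3.40 CPM with 3-digit numbers.

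The arginine carriers moved in opposite directions between the later days. Slc7a1 was higher than at day 0 by 1.51 at day 1 on the log2 scale (adjusted p = 0.000114), and its day 3 against day 1 value was -0.59 (adjusted p = 0.0404). Slc7a2 was higher than at day 0 by 1.90 at day 3 (adjusted p = 0.00512) and than at day 1 by 1.21 (adjusted p = 0.0484). The lower genes of day 1 were Nos1ap, which encodes a protein that binds the neuronal synthase (-1.06, adjusted p = 0.000936), Pts, of tetrahydrobiopterin synthesis (-0.85, adjusted p = 0.0154), and Ddah1, which breaks down methylarginines that block the synthases (-0.79, adjusted p = 0.0105). Nos1ap was at 4.64 ± 0.437 CPM at day 0, 2.22 ± 0.252 CPM at day 1 and 3.98 ± 0.442 CPM at day 3, and it was higher at day 3 than at day 1 (0.84, adjusted p = 0.0103), as Nos1 was. Ass1, which remakes arginine and is known to be abundant in kidney, did not pass the filter and was not tested. Reads that map to more than 1 place are not in these counts, so its level is uncertain.

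Both natriuretic peptide receptors fell at day 1. Npr3 (ENSMUSG00000022206.7, chr15:11839896-11907287, minus strand), the clearance receptor, was at 19.8, 17.4, 17.0 and 14.8 CPM at day 0, at 5.87, 8.22, 4.43, 3.77 and 5.23 CPM at day 1 and at 4.58, 10.4, 11.2, 7.73 and 12.9 CPM at day 3. Every library after IRI was below every day 0 library. The mean fell from 17.2 ± 2.06 CPM at day 0 (SD, n = 4) to 5.50 ± 1.71 CPM at day 1 and was 9.37 ± 3.25 CPM at day 3 (SD, n = 5 each). Npr3 had a log2 fold change of -1.64 at day 1 (SE 0.28, 0.321-fold, adjusted p = 0.000633) and of -0.88 at day 3 (SE 0.28, 0.543-fold, adjusted p = 0.0258).

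The day 1 decrease of Npr3 was called within both formats, at -1.95 and -1.29 in the 1-digit and 3-digit libraries. At day 3 it was -0.74 with 1-digit and -0.98 with 3-digit numbers (adjusted p = 0.0691 and 0.0187). The day 3 call was lost without day 0 replicate 1 (-0.81, adjusted p = 0.0732), replicate 2 (-0.88, adjusted p = 0.0564) or replicate 3 (-0.89, adjusted p = 0.0554), without day 3 replicate 4 (-0.82, adjusted p = 0.0594) and with total counts in place of TMM scaling (-0.72, adjusted p = 0.0894).

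Npr1 (ENSMUSG00000027931.12, chr3:90450591-90465866, minus strand), the receptor that makes cyclic GMP, was at 22.4, 25.8, 22.7 and 24.3 CPM at day 0, at 19.1, 18.6, 8.11, 6.97 and 11.3 CPM at day 1 and at 15.2, 13.3, 20.4, 17.8 and 25.6 CPM at day 3. All day 1 libraries were below all day 0 libraries, in 2 sets, replicates 1 and 2 near 19 CPM and replicates 3, 4 and 5 at 11.3 CPM or less. The pooled log2 fold change of Npr1 was -0.89 at day 1 (SE 0.28, 0.539-fold, adjusted p = 0.0211) and -0.37 at day 3 (95% interval -0.97 to 0.23, adjusted p = 0.324). The day 1 call was lost without day 0 replicate 2 (-0.85, adjusted p = 0.0523). By format the day 1 value was -1.44 with 1-digit and -0.34 with 3-digit numbers (adjusted p = 6.35e-05 and 0.226). At day 3 it was -0.14 with 1-digit numbers (adjusted p = 0.613) and was called lower with 3-digit numbers (-0.55, adjusted p = 0.0433).

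The natriuretic peptides and the genes downstream of cyclic GMP made a list of 16 genes, 12 of them tested. At day 1, 2 were higher and 3 lower, with a median log2 fold change of -0.25, and at day 3, 6 were higher and 2 lower, with a median of 1.16. The day 1 median changed sign with the format, with 3 genes higher and 7 lower in the 1-digit libraries (median -0.72) and 4 higher and 3 lower in the 3-digit libraries (median 0.29). Corin, the protease that cuts the atrial peptide to its active form, fell from 7.82 ± 1.40 CPM to 0.890 ± 0.578 CPM at day 1 (-3.13, adjusted p = 0.000452) and 1.08 ± 0.611 CPM at day 3 (-2.84, adjusted p = 0.00108). Npr2, the receptor of the C-type peptide, was lower at day 1 (-0.81, adjusted p = 0.00470). The peptide genes themselves did not pass the filter: Nppa, Nppb and Nppc had no more than 1 read in any day 0 library, and Nppb had 5 to 20 reads at day 1 and Nppc 4 to 12.

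Of 3 listed subunits of soluble guanylate cyclase, the receptor of nitric oxide, 2 were higher at day 3. Gucy1a3 was at 8.38 ± 0.297 CPM at day 0, 5.26 ± 2.49 CPM at day 1 and 21.8 ± 5.08 CPM at day 3 (1.38 against day 0, adjusted p = 0.00325). Gucy1b3 was higher by 1.39 (adjusted p = 0.0151). The third, Gucy1a2, was at 3.62 to 5.83 CPM at day 0 and 4.04 to 10.8 CPM at day 3, which overlap (0.64, adjusted p = 0.279). Prkg2, a cyclic GMP-dependent kinase, was higher at both days (1.59, adjusted p = 0.0226, and 2.29, adjusted p = 0.00451), and so was Vasp, a substrate of these kinases (1.62 at day 1, adjusted p = 0.000579, and 1.25 at day 3). Gucy1b3 and Vasp also differed between the number formats of day 3.

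Levels of different genes are compared per kilobase of exon. At day 0 the order of the mean level was Ece1 (19.1 CPM per kb), Ednrb (6.74), Npr1 (4.98), Npr3 (1.83), Nos3 (1.63), Edn1 (0.725), Ednra (0.320), Nos2 (0.189) and Nos1 (0.165). The ranges of Npr3 and Nos3 overlapped, as did those of Ednra and Nos2 and of Nos2 and Nos1, and all other neighbours in this order were apart. At day 1 Edn1 (6.51 CPM per kb) stood next below Ednrb, and Npr3 (0.586 CPM per kb) was below Npr1, Nos3 and Edn1. At that day each of the first 4, Ece1, Ednrb, Edn1 and Nos3, overlapped with the next, and Npr1, the fifth, stood apart from Npr3. At day 3 Edn1 (3.97), Npr1 (3.86) and Nos3 (3.16) overlapped with each other, and Nos1 remained last at 0.179 CPM per kb. Among the synthases Nos3 was the highest at every day.

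**Figure D3:**
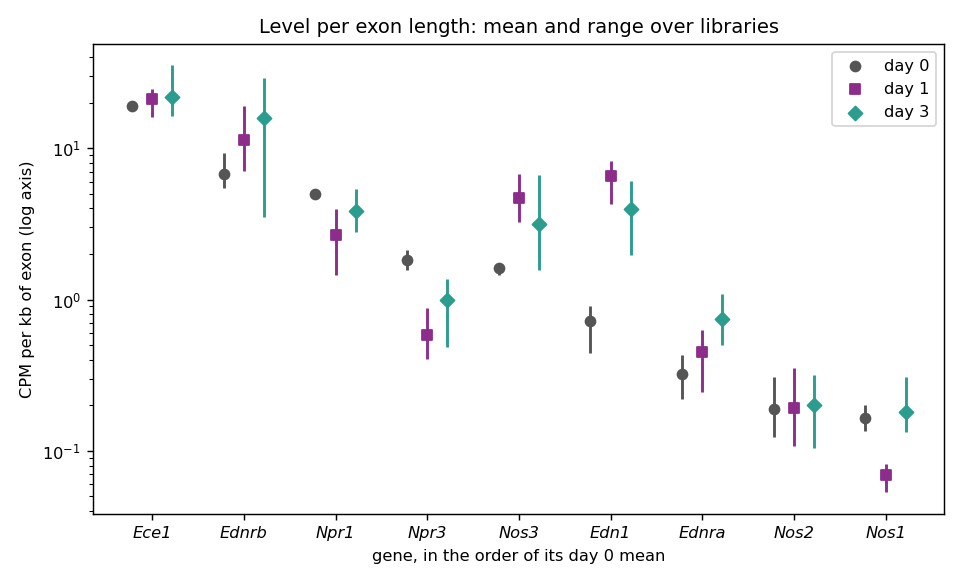
Mean level in CPM per kb of exon on a log axis, with the range over libraries as a line (n = 4 at day 0, 5 at day 1 and 5 at day 3), for the 9 genes in the order of their day 0 mean. Edn1 moves from 0.725 at day 0 to 6.51 at day 1, past Npr1 and Npr3, and Nos1 is lowest at day 1.

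Libraries with 3-digit and 1-digit numbers were also compared within day 1 and within day 3. At day 1, 1 of the 9 differed, where 35.0% of all genes tested were called. This was Npr1, at 18.8 ± 0.352 CPM with 3-digit numbers (SD, n = 2) and 8.81 ± 2.27 CPM with 1-digit numbers (SD, n = 3) (log2 difference 1.10, SE 0.23, adjusted p = 0.00324). At day 3, 3 of the 9 differed, where 18.5% of all genes were called, and all 3 were lower in the 3-digit libraries. Ednrb was at 33.9 ± 17.5 CPM in these (SD, n = 3) against 119 ± 6.72 CPM in the others of that day (SD, n = 2) (-1.81, SE 0.40, adjusted p = 0.0126). Nos3 was at 7.99 ± 1.82 against 20.7 ± 9.53 CPM (-1.37, SE 0.30, adjusted p = 0.0121), and Ece1 at 90.2 ± 4.98 against 154.6 ± 45.5 CPM (-0.78, SE 0.16, adjusted p = 0.00998). All 3 calls were lost without day 3 replicate 5, which leaves 1 library with a 1-digit number, assumed to vary like the others (adjusted p = 0.0917, 0.174 and 0.129 for Ednrb, Nos3 and Ece1). The difference was then -1.77 for Ednrb, close to its value with that library, and smaller for Nos3 (-0.82) and Ece1 (-0.46).

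The format difference itself changed between the days for 2 of the 9 genes, where 17.6% of all genes were called. It was larger at day 1 than at day 3 by 1.51 for Npr1 (SE 0.32, adjusted p = 0.00722) and by 1.71 for Nos3 (SE 0.42, adjusted p = 0.0151). The Nos3 call was lost without day 1 replicate 1 (adjusted p = 0.0911) or day 3 replicate 5 (adjusted p = 0.0820). Nos2 had a difference of 2.09 (adjusted p = 0.0503).

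Within a single format, day 3 against day 1 was called for 4 of the 9 genes, of which Nos1 was also called in the pooled comparison and Npr1, Npr3 and Nos3 were not. In the 1-digit libraries Npr1 was higher at day 3 by 1.31 (adjusted p = 0.00133) and Npr3 by 1.20 (adjusted p = 0.0177), 2 of 9, where 32.0% of all genes were called. In the 3-digit libraries Nos1 was higher by 1.62 (adjusted p = 0.0190) and Nos3 lower by 1.47 on the log2 scale (-1.47, adjusted p = 0.00836), 2 of 9, where 13.9% of all genes were called. The day 0 libraries all have 1-digit numbers, so that for the 3-digit libraries the format and the day cannot be told apart in a comparison with day 0.

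**Figure D4:**
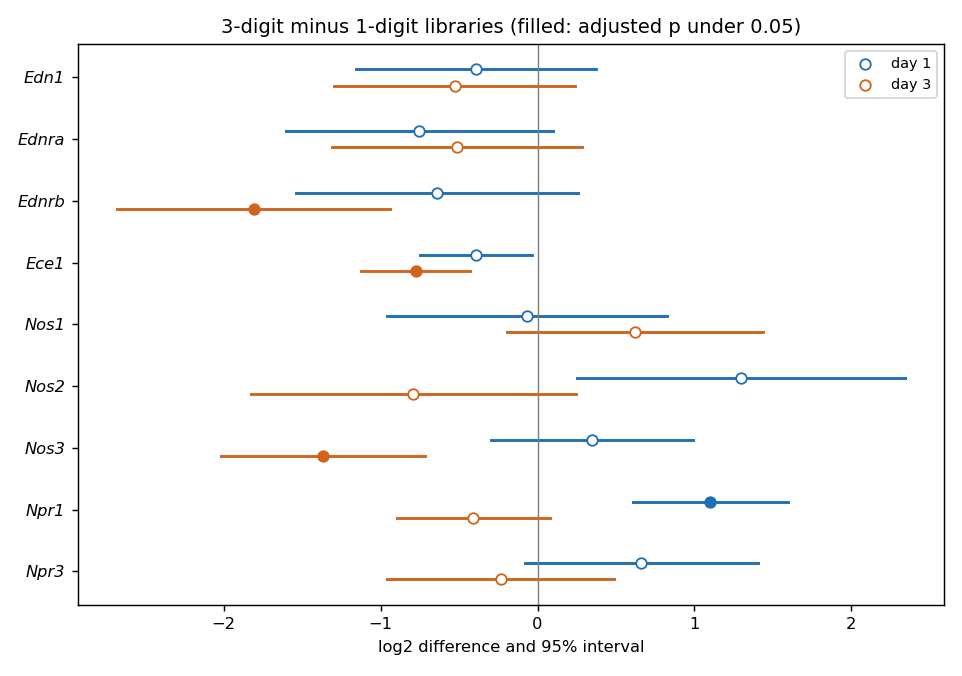
Log2 difference of 3-digit minus 1-digit libraries (horizontal axis) for each of the 9 genes within day 1 (blue, 2 against 3 libraries) and day 3 (orange, 3 against 2), with 95% intervals and filled points where the adjusted p is under 0.05. Npr1 at day 1 is the only filled point to the right of 0, and Ednrb, Ece1 and Nos3 at day 3 are filled to the left.

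Markers of endothelium, the cell type best known for Nos3, Edn1 and Ece1, moved with the number format of day 3. Of 12 endothelial markers, 8 were lower in the 3-digit libraries of day 3 and none higher, with a median log2 difference of -0.96. Their summed level was 837 to 1297 CPM in the 1-digit and 350 to 603 CPM in the 3-digit libraries of that day, and 585 to 698 CPM at day 0. At day 1 it was 689 to 862 CPM, and the median log2 fold change of the markers was 0.09, with 2 higher than at day 0 and 1 lower. Chosen after their values were seen, these were Cdh5 (1.54) and Egfl7 (1.5) upward and Tek (-1.52) downward on the log2 scale. In the pooled fit no endothelial marker was called against day 0 at day 3, with a median of 0.25. Within the 1-digit libraries of day 3, in which Nos3, Ednrb and Ece1 were called higher than at day 0, 9 of the 12 were higher than at day 0 and none lower (median 0.75), and within the 3-digit libraries none was higher and 2 were lower (median -0.26). Edn1 was 3.16 higher at day 1 on the log2 scale, and its format value at day 3 was -0.53, not called (adjusted p = 0.301, edgeR). The part of these markers in the values of Edn1, Nos3, Ece1 and Ednrb was not tested.

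Other cell types differed by format as well. Of the 10 markers of vascular smooth muscle and pericytes, 8 were higher with 3-digit numbers at day 1 and 5 were lower with them at day 3. Of 8 markers of collecting duct principal cells, 3 were higher with 3-digit numbers at day 1 and 2 at day 3, and the days gave 3 lower at day 1 and 5 lower at day 3 against day 0, with summed levels of 950 to 1200 CPM at day 0, 407 to 898 CPM at day 1 and 263 to 835 CPM at day 3. Of 8 podocyte markers, none was called at day 1 against day 0 and 1 was higher at day 3, while with 3-digit numbers 2 were higher and 2 lower at day 1 and 2 were lower at day 3. In the thick ascending limb 5 of 6 markers were lower than at day 0 at both days, and 2 were higher with 3-digit numbers at day 1 and 4 at day 3. Of 8 proximal tubule markers 3 were lower than at day 0 at day 1 and 2 at day 3. By format, 4 of these 8 were lower with 3-digit numbers at day 1 (median -1.34) and 4 were higher with them at day 3 (median 1.56). Of 5 urothelial markers, 2 were higher with 3-digit numbers at day 1, and against day 0 just 1 was called, lower at day 3. Their part in the results above was not tested.

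Markers of tubular injury were looked at as a check of the labelled days. Lcn2 was at 2.24 ± 0.696 CPM at day 0, 480 to 2777 CPM at day 1 and 66.1 to 3403 CPM at day 3, above day 0 in every library. Havcr1 was at 89.8 to 119 CPM at day 0, at 30.5 to 3014 CPM at day 1 and at 170 to 786 CPM at day 3, and the formats were far apart at day 1. The 1-digit libraries of day 1 were at 30.5, 45.8 and 151 CPM from lowest to highest, 2 of them below the day 0 range (log2 fold change -0.48, adjusted p = 0.454), and the 3-digit libraries at 1860 and 3014 CPM (4.52, adjusted p = 0.000116). The 3-digit minus 1-digit difference of Havcr1 at day 1 was 5.01 (adjusted p = 0.000370). Its part in the format values of Npr1 was not tested.

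The genes most like each of the 9 across the 14 libraries were ranked by Pearson's r of log2 CPM among the genes with a mean of at least 1 CPM. These correlations share the libraries, their depth and the days. Edn1 was most like Ptger4 (0.99), Sprr2g (0.98) and Socs3 (0.98), and Ednra most like Lhfp (0.89). Ednrb was most like Camta1 (0.93), and Ece1 most like Kdr (0.94) and Adgrf5 (0.93). Nos1 was most like Vav3 (0.95), Nos2 most like Sipa1 (0.85) and Nos3 most like Fam101b (0.96). Npr1 was most like Gnaz (0.95) and Tek (0.95), and Npr3 most like Mtfmt (0.94). Kdr and Tek are also in the endothelial list. Among the 9 genes themselves, r was 0.82 for Edn1 and Nos3, 0.83 for Npr1 and Npr3, 0.80 for Ednrb and Ece1, and -0.83 for Edn1 and Npr3.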

How the data were processed

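Kidney RNA of 14 libraries was measured by bulk RNA sequencing. Per the submitters' processing notes the authors used Trimmomatic, STAR and mm10, with versions and annotation not given in the sources used here, and deposited STAR's raw read counts for each gene and strand, from uniquely mapped reads and not normalized. The column of the opposite strand was used, which held 98.5% to 98.75% of the reads assigned to a strand. The entries that name no gene (28.99% to 38.34% of the reads) were left out. Replicates differed by more than counting error (chi-square over its degrees of freedom at least 5.69), so no library was treated as deposited more than once. This does not show that they come from different animals.

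Groups came from the labels' day. Counts were filtered with filterByExpr, TMM-scaled and tested in R 4.3.3 with edgeR 4.0.16 (quasi-likelihood, limma 3.58.1) over all 14 libraries, with 1 term per day, or 1 per day and number format. The standard error was derived from the F value, and the prior count for log2 CPM was 2. The fit was tested on simulated data. Coordinates are of GENCODE M21 on GRCm38.

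The 9 genes and all lists were chosen with earlier results of these data known, the lists from general knowledge. All 9 genes are named. Of the pathway lists, at most the 3 highest and 3 lowest called genes per comparison are given with values, with those genes' values in other comparisons, and of the markers only Lcn2 and Havcr1, apart from 3 endothelial markers noted in the text, while genes that failed the filter or were not called are named for their counts. Some genes of the pathway lists are not reported here. The 3 most correlated genes per gene were ranked, and up to 3 are given. Alternatives were unstranded counts, RLE factors, total counts, 2 other filters, DESeq2 1.42.0, the 2 days alone, the replicate block, number format as a term, 1 format alone, and leaving out each library.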

Additional observations from a re-analysis of the deposited data

Results flagged for a closer look

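For 2 of the 9 genes, where 17.6% of all genes were called, the difference between 3-digit and 1-digit libraries was not the same at day 1 and day 3 by a test of that difference. Npr1 was 1.10 higher in the 3-digit libraries at day 1 and -0.41 at day 3 on the log2 scale, which differ by 1.51 (adjusted p = 0.00722, edgeR), and this stayed called without any single library of days 1 and 3 (1.24 to 1.75). Nos3 was at 0.35 at day 1 and -1.37 at day 3, which differ by 1.71 (adjusted p = 0.0151), with calls lost without day 1 replicate 1 or day 3 replicate 5. Endothelial markers were 8 of 12 lower in the 3-digit libraries of day 3 and 2 higher and 2 lower in those of day 1, and in the same test of the difference between the days 6 of 12 were higher (median 1.00). In that test 8 of 10 markers of vascular smooth muscle and pericytes were higher (median 2.32) and 6 of 8 proximal tubule markers lower (median -3.14). The part of these markers in the Npr1 and Nos3 values was not tested. No library stood far from the others of its day for any gene, in 27 groups of libraries, of which chance would single out 1.35.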

How the results depend on the processing

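The calls of Edn1, Nos1, Nos3 and Npr3 at day 1 and of Edn1 and Ednra at day 3 against day 0 held under all alternatives run, with log2 fold changes of 2.92 to 3.34 for Edn1, -1.36 to -1.13 for Nos1, 1.33 to 1.78 for Nos3 and -1.92 to -1.28 for Npr3 at day 1, and 2.22 to 2.76 for Edn1 and 0.99 to 1.58 for Ednra at day 3. For Ednra at day 3 the adjusted p reached 0.04993 without single libraries and 0.04417 in the other settings, close to the threshold of 0.05. At day 1 against day 0, 5 of the 9 genes changed in the report, 7 with number format as a term and with only 1-digit libraries, and 4 with only 3-digit libraries and without day 0 replicate 2, while all genes changed numbered 6020 in the report and 5162 to 8839 over the settings other than leaving out single libraries. The number of the 9 genes changed at day 3 against day 0, 3 in the report, was 6 with number format as a term, 6 with only 1-digit libraries, 5 by DESeq2 and 2 to 5 without single libraries (5 without day 3 replicate 2). At day 3 against day 1 it was 1 in the report, 2 with the replicate block, 2 with number format as a term, 3 and 2 with only 1-digit and only 3-digit libraries, 3 by DESeq2 and 1 to 3 without single libraries. For the number format it was 1 at day 1, 2 by DESeq2 and 1 to 3 without single libraries; 3 at day 3, and 0 to 3 without single libraries (0 without day 3 replicate 5); and 2 for the difference between the days, 1 to 3 without single libraries. Over all genes, 4757 were changed at day 3 against day 0, and 8119 with only 1-digit libraries. Day 3 against day 1 gave 2276, 831 with only the 2 days, 5194 with only 1-digit libraries and 1269 to 3350 without single libraries. The number format gave 5001 at day 1 (1997 to 5602 without single libraries, lowest without day 1 replicate 2), 2645 at day 3 (91 without day 3 replicate 5 to 4771 without day 3 replicate 1) and 2510 for the difference (1260 to 3148). The day 1 call of Npr1 and the day 3 call of Npr3 were lost in the settings named in the report, and that of Npr1 also with only 3-digit libraries (-0.34, adjusted p = 0.1395).

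Signs changed only in values that were not called, and the cause was not tested. With number format as a term, Nos2 was -0.089 at day 1 and -0.0427 at day 3 against day 0, and Nos1 -0.0783 at day 3. With only 1-digit libraries, Nos2 was -0.61 at day 1, Nos1 -0.27 at day 3, and Nos3 0.22 at day 3 against day 1. With only 3-digit libraries, Ece1 was -0.10 at day 1 and -0.16 at day 3, Nos2 -0.27 at day 3, and day 3 against day 1 was -0.0897 for Ednrb, -0.0654 for Ece1, -0.94 for Nos2 and -0.21 for Npr1. Without single libraries Nos2 ran from -0.32 to 0.38 at day 1, -0.11 to 0.42 at day 3 and -0.19 to 0.36 at day 3 against day 1, Nos1 from -0.20 to 0.23 at day 3, and Ece1 from -0.0309 to 0.28 at day 3 and -0.21 to 0.14 at day 3 against day 1. The format values ran from -0.41 to 0.18 for Nos1 and -0.0932 to 0.68 for Nos3 at day 1, from -0.56 to 0.16 for Npr3 at day 3, and from -0.25 to 0.45 for Edn1 and -0.61 to 0.0364 for Ednra between the days.

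Total counts without TMM scaling moved the median of all genes at day 3 from 0.05 to 0.19 against day 0 and from 0.02 to 0.17 against day 1, and no gene of the 9 changed sign under another scaling. The replicate numbers did not pair the libraries: 4 of 13 pairs with the same number had a correlation over 0.1 (-0.17 to 0.26), and 4 of 14 libraries correlated best with their own number. With the replicate block 5162 and 4103 genes were changed at day 1 and day 3 against day 0, and 5 and 3 of the 9. Nos2, with at most 29 reads per library, was left out by the filter of at least 10 counts in every library, and the values of Nos1 and Nos2 rest on 11 to 69 and 6 to 29 reads per library.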
